A study of Mus musculus with 2 samples.

Results

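Genomic imprinting leaves 1 parental copy of a gene active and the other silent. The 10 genes described here are imprinted genes of the mouse with known roles in growth control. They are Cdkn1c, H19, Meg3, Mest, Peg3, Dlk1, Plagl1, Grb10, Zim1 and Ndn, and all 10 were among the 27998 genes of the deposited matrices. The genes were chosen by their counts in these same 2 libraries, with results already in view, so the levels below are a description and were not tested.

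Many imprinted genes are active in the fetus, are turned down after birth and act on body and organ size. Genes read from the maternal copy, such as Cdkn1c, H19 and Grb10, are often growth-limiting, whereas paternally read genes such as Dlk1, Mest and Peg3 often favour growth. Several are known from muscle stem cells and mesenchymal progenitors, where they bear on quiescence, cell-cycle exit and differentiation. The counts do not separate the parental alleles, so nothing below concerns which copy was read.

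The data were 2 droplet single-cell RNA sequencing libraries of the tibialis anterior, a lower-leg muscle, taken 2 and 7 days after notexin, a toxin from snake venom, had been injected to destroy muscle fibres and set off regeneration. Both libraries were of C57Bl/6 mice (given as the J substrain in the study's methods) with no other allele named. The sample labels gave female sex and 7 months of age for both, whereas the deposited cell annotation gave males of 4 months (day 2) and 7 months (day 7), 1 mouse per library. No uninjured muscle was analysed here. With 1 library per day, day, mouse, age and library cannot be told apart, there was no replicate error, and the intervals below are 95% counting intervals (exact Poisson for levels, Clopper-Pearson for shares, conditional binomial for ratios).

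The day 2 library held 4836 cell barcodes with 41123913 counts and the day 7 library 4889 with 32356088. After the study's limits, 3178 and 3196 cells with a cell type label remained, at medians of 9010 and 6557 counts over all kept cells. The libraries shared 4 barcodes, 1 of them among kept cells. No nuclei were isolated for these libraries of dissociated cells, so Myonuclei below is the name of a label only. Most of the 25 deposited labels held their markers, with exceptions that touch the values below. Of the 21 cells labelled MuSCs (muscle stem cells) at day 2, 4 held 3 or more counts of 9 myogenic markers, against 132 of 137 at day 7. Of the 175 Myoblasts/Progenitors at day 7, 130 held 3 or more of these counts and 123 held 3 or more counts of 6 myofibre markers. Of the Smooth Muscle cells, 65.1% at day 2 and 63.4% at day 7 held 3 or more counts of their own 4 markers, and 93.4% and 84.5% held 3 or more counts of 4 endothelial markers. Of the 50 T Cells at day 2, 10 held 3 or more counts of the T and NK cell markers, and of the 10 day 7 Neutrophils 1 held as many of theirs. Levels are given as CPM, the counts of a gene per 1000000 counts summed over the cells of a label. A count is 1 tagged transcript end, so values are compared between cell types and days for the same gene and not between genes.

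The genes lie in clusters on 5 chromosomes (GRCm38/mm10 coordinates, GENCODE annotation). On chromosome 7, Cdkn1c (143458339 to 143461050, minus strand) lies 880 kb from H19 (142575529 to 142578143, minus strand), Peg3 (6703892 to 6730431, minus strand) lies 7.44 kb from Zim1 (6671269 to 6696450, minus strand), and Ndn (62346569 to 62350262, plus strand) lies apart from both pairs. On chromosome 12, Dlk1 (109452823 to 109463336) and Meg3 (109541001 to 109571726), both on the plus strand, are 77.7 kb apart. Mest lies on chromosome 6 (30723547 to 30748465), Plagl1 on chromosome 10 (13060504 to 13131694) and Grb10 on chromosome 11 (11930508 to 12038683). Cdkn1c, Meg3, Mest and Ndn each overlap 1 or 2 annotated genes on the opposite strand that are also in the matrices: Gm44732 (Cdkn1c), Gm26906 (Meg3), Copg2 and Gm44296 (Mest) and Gm32061 (Ndn). Whether counting used strand is not given in the sources used here, so counts from these overlaps are uncertain.

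H19 and Meg3 are long noncoding RNAs. H19 carries mir-675 in an exon, and exons of Meg3 carry mir-770 and mir-1906. The microRNAs themselves are not measured by this method. The mature sequences of mir-675 (RefSeq, GRCm38.p6) are shown because H19 was the gene of the set that also stood high in cells labelled Myonuclei. The capitals mark the seed, bases 2 to 8. The 2 arms have different seeds.
mmu-miR-675-5p (chr7:142577112-142577133, - strand): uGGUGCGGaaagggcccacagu
mmu-miR-675-3p (chr7:142577078-142577099, - strand): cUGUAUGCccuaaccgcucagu
An intron of Mest carries mir-335, with these mature sequences, seeds again in capitals.
mmu-miR-335-5p (chr6:30741314-30741336, + strand): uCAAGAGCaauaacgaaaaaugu
mmu-miR-335-3p (chr6:30741354-30741375, + strand): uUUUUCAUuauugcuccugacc

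The start regions of the neighbours Peg3 and Zim1 are shown because these genes followed each other across cell types, and those of Dlk1 and Meg3 as the neighbouring pair that did so less closely (correlations below). Each is 300 bases from RefSeq (GRCm38.p6), 250 before and 50 after the first annotated start, written 5′ to 3′ on the gene's strand, with CpG dinucleotides (CG) in capitals.
Peg3 (chr7:6730370-6730669, - strand): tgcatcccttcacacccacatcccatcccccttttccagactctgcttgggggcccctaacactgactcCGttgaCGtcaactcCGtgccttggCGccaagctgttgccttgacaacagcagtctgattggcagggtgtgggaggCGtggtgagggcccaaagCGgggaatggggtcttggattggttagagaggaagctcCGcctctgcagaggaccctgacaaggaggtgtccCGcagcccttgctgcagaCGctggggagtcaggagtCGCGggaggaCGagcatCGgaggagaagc
Zim1 (chr7:6696383-6696682, - strand): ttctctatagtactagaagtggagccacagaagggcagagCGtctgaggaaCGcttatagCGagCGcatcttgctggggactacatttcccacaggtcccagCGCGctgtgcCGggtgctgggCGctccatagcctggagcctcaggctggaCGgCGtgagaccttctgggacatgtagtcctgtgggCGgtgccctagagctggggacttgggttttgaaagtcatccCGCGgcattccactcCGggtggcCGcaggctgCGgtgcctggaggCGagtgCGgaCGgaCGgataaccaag
Dlk1 (chr12:109452573-109452872, + strand): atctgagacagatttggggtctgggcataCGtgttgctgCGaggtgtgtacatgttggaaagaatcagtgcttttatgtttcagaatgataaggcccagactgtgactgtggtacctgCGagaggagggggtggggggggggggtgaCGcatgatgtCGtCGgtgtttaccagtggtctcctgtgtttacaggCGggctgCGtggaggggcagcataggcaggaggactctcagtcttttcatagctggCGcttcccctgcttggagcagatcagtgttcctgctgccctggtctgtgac
Meg3 (chr12:109540746-109541045, + strand): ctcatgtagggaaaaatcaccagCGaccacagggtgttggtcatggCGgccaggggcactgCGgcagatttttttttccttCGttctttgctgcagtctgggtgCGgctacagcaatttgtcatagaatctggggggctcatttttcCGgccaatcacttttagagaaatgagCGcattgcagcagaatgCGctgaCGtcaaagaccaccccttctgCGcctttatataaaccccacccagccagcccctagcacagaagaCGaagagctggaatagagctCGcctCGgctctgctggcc
Start regions were found for 8 of the genes: Meg3, Mest, Peg3, Dlk1, Plagl1, Grb10, Zim1 and Ndn. Of 32851 mouse start regions of this length, 94.6% held at least 1 CpG, with a median of 7. The first start of Peg3 held 13 CpGs, Zim1 20, Dlk1 9 and Meg3 13, and Grb10 held 45, more than 98.1% of all start regions. TATAAA, the letters of a TATA box, was searched on both strands and was found in the Meg3 region, in 2 overlapping matches on opposite strands, and in 13.6% of all start regions. GGGGGCCCC, a form of the Plagl1 recognition sequence, was found 1 time, in the Peg3 region, and in 0.405% of all start regions. CGCCATNTT, the core of the YY1 site, was found in none of these 8 genes' windows and in 2.38% of all of them. Such matches describe letters and are not binding sites.

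At day 7 the counts of all 10 genes came mostly from cells of the muscle and connective tissue lineages. FAP cells (fibro-adipogenic progenitors, the mesenchymal cells of muscle that lay down matrix or become fat cells) held 29.5% of all counts in the library. They held 92.3% of Ndn counts, 87.9% of Dlk1, 86.2% of Meg3, 74.2% of Plagl1, 72.8% of Zim1, 62.4% of H19, 62.0% of Cdkn1c, 59.6% of Grb10, 57.5% of Mest and 45.1% of Peg3. Myogenic cells held 11.7% of all counts but 47.4% of Peg3, 26.1% of Mest, 24.8% of Cdkn1c and 23.9% of H19. Monocytes and macrophages held 27.2% of all counts and between 0.218% (Meg3) and 3.33% (H19) of the counts of each gene.

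At day 2 the picture was different for some of the genes. Cells labelled Smooth Muscle held 15% of all counts and 56.8% of Mest, 53.7% of Cdkn1c and 50.2% of Meg3 counts. Endothelial cells held 7.13% of all counts and 35.0% of Mest, 26.7% of Peg3 and 22.0% of Cdkn1c counts. FAP cells already held 92.1% of Ndn and 86.3% of Dlk1 counts, with 15.1% of all counts. H19 and Zim1 had 27 and 6 counts in the whole day 2 library, against 10464 and 967 at day 7.

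**Figure D1:**
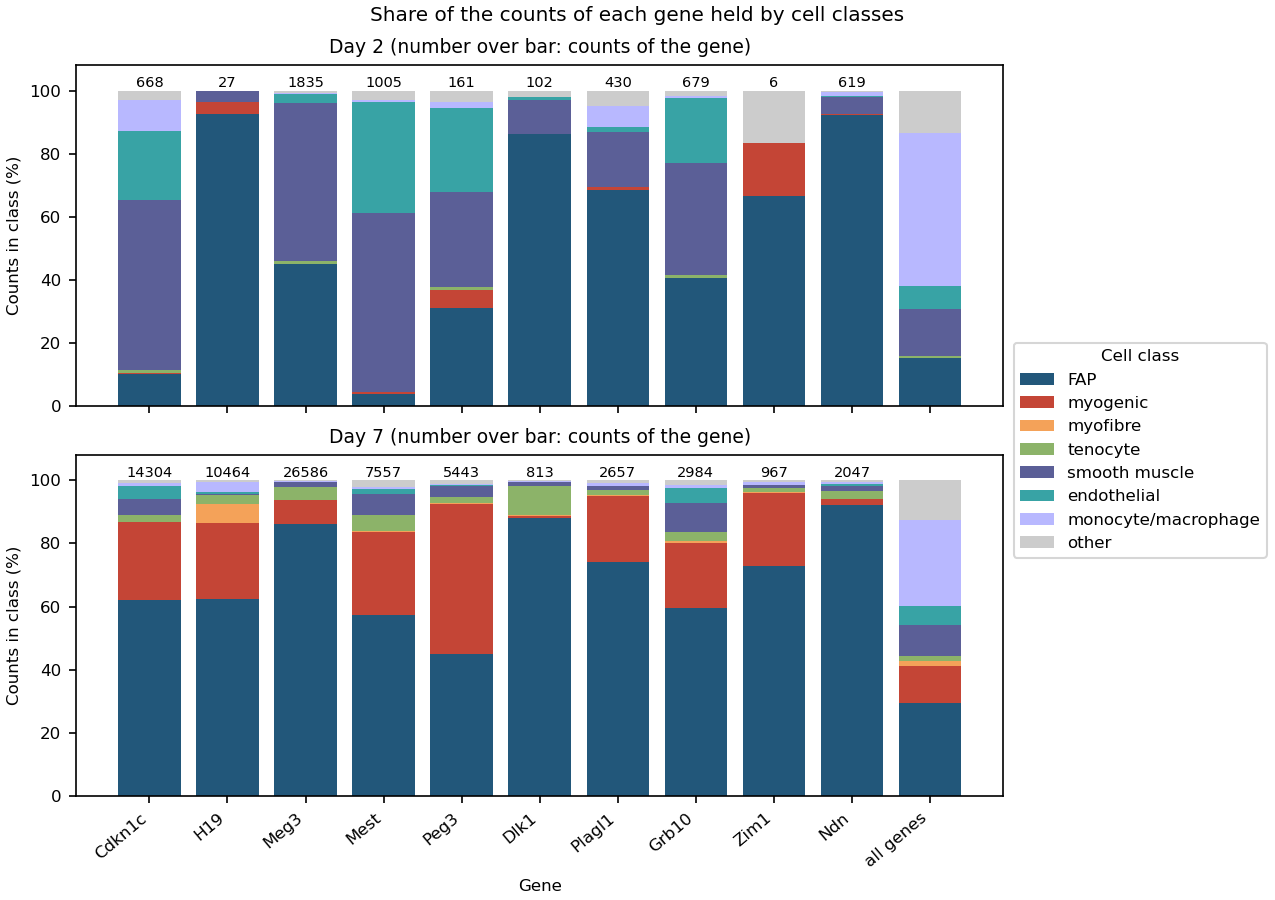
Share (%) of each gene's counts held by cell classes at day 2 and day 7, with the share of all counts in the last bar and the number of counts above each bar. At day 7 the FAP segment ran from 45.1% (Peg3) to 92.3% (Ndn), above the 29.5% of all counts.

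**Figure D2:**
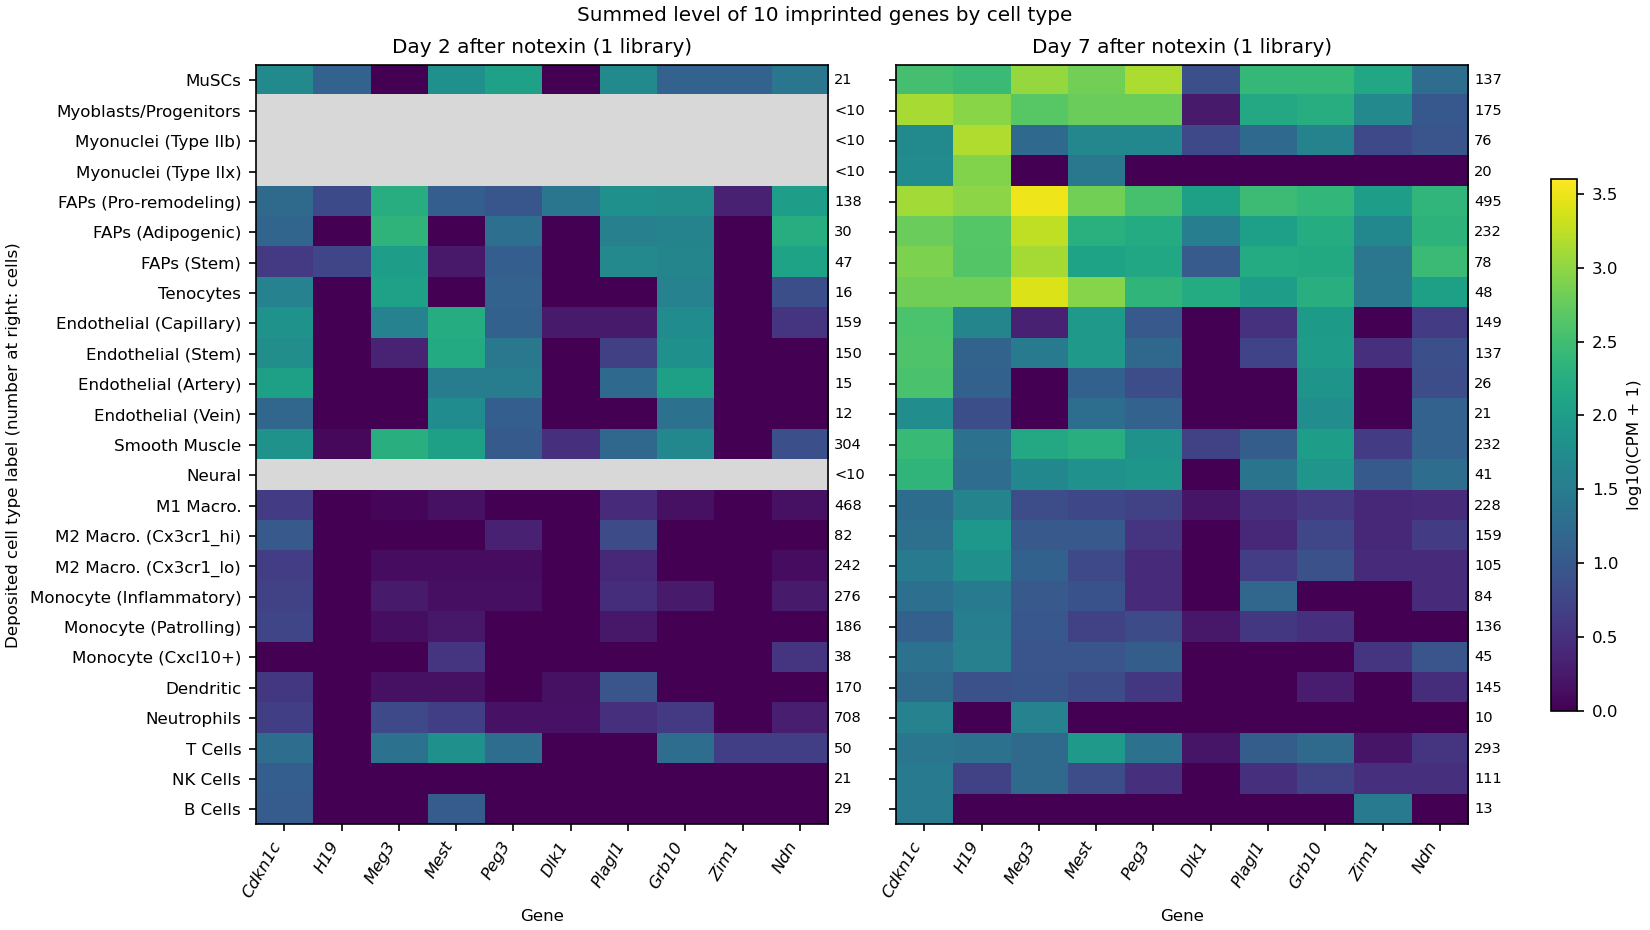
Level of each gene as log10(CPM + 1) in each deposited label with at least 10 cells, day 2 left and day 7 right, grey where fewer cells were present. The day 7 panel is bright in the FAP, tenocyte and myogenic rows and dark in the blood cell rows.

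Free RNA was measured in barcodes with 1 to 100 counts, which hold no cell. At day 7 these barcodes held 339 CPM of H19, 449 of Meg3, 222 of Cdkn1c, 154 of Mest, 107 of Peg3, 56.4 of Plagl1, 50.9 of Grb10, 47.1 of Ndn, 21.9 of Zim1 and 15.5 of Dlk1. At day 2 the same values ran from 0.327 CPM (Zim1) to 21.6 CPM (Meg3). With barcodes of 1 to 10 counts, 14 of these 20 values lay outside their counting intervals, such as 683 CPM of Meg3 and 284 of H19 at day 7. With barcodes of 10 to 100 counts 3 did. The free RNA of the day 7 library held more of every member, and low counts in other cells are read against it. After thinning to 2000 counts per cell, 537 Neutrophils at day 2, which should lack these genes, held a member in 0 (H19, Zim1) to 0.559% (Cdkn1c) of cells (171 shallower cells left out, median depth 2351 before thinning). At day 7 there were too few Neutrophils and B Cells, and 101 NK Cells held a member in 0 to 3.96% of cells (10 left out, median depth 3991).

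Cdkn1c encodes p57, an inhibitor of cyclin-dependent kinases that holds cells out of the cycle. At day 2 its level was 70.3 CPM (63.2 to 77.9) in Smooth Muscle, 66.3 (52.8 to 82.3) in Endothelial (Capillary) and 59.6 (43.8 to 79.3) in Endothelial (Stem), whose intervals overlap, and 16.5 (12.6 to 21.4) in FAPs (Pro-remodeling). At day 7 it was 1326 CPM (1281 to 1372) in Myoblasts/Progenitors and 1260 (1231 to 1289) in FAPs (Pro-remodeling), again overlapping (1177 without the top Myoblasts/Progenitors cell, below the FAP label). FAPs (Stem) followed with 765, Tenocytes with 660 and FAPs (Adipogenic) with 596, Endothelial (Stem) had 406, Endothelial (Capillary) 384 (345 to 427) and MuSCs 339 (299 to 384). Among Myoblasts/Progenitors, 74.3% of cells held a count and 1 cell held 394 of the 3288.

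Grb10 is an adaptor protein that dampens insulin and IGF1 receptor signalling. Its levels lay close together across the labels that held it. At day 2, Endothelial (Stem) had 62.1 CPM, FAPs (Pro-remodeling) 59.0, Endothelial (Capillary) 55.8 and Smooth Muscle 47.4, each interval overlapping the next. At day 7, MuSCs had 252 (217 to 290), FAPs (Pro-remodeling) 239 (227 to 252), Tenocytes 188, Myoblasts/Progenitors 173, FAPs (Adipogenic) 167 and FAPs (Stem) 153, a run in which each label overlapped its neighbour. Smooth Muscle had 102 and the endothelial labels 91.3 (Capillary) and 94.6 (Stem).

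Plagl1, also called Zac1, is a zinc finger transcription factor that can halt the cell cycle. At day 2 it was found mainly in the FAP labels, at 62.7 CPM (Pro-remodeling), 48.8 (Stem) and 36.5 (Adipogenic), and 14.7 in Smooth Muscle. At day 7, FAPs (Pro-remodeling) had 288 (275 to 302) and MuSCs 246 (212 to 284), overlapping, above FAPs (Stem) at 165, Myoblasts/Progenitors at 149, FAPs (Adipogenic) at 105 and Tenocytes at 103. Dendritic cells held 17 counts at day 2, in 12 of 170 cells, and 0 at day 7 in 145 cells.

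H19 was nearly absent at day 2. Of its 27 counts, 19 were in 1 FAP (Pro-remodeling) cell and 6 in 4 FAPs (Stem) cells. At day 7 it stood at 1498 CPM (1378 to 1627) in Myonuclei (Type IIb), where 58 of 76 cells held it, at 941 (916 to 966) in FAPs (Pro-remodeling), at 925 (888 to 964) in Myoblasts/Progenitors and at 830 (636 to 1064) in Myonuclei (Type IIx), the last 3 overlapping. In Myoblasts/Progenitors, 2163 of the 2294 H19 counts were in cells with 3 or more myofibre marker counts, and the other 52 cells had 286 CPM. Tenocytes had 660, FAPs (Adipogenic) 443, FAPs (Stem) 432 and MuSCs 282. The other genes had their high levels elsewhere: Cdkn1c had 50.1 CPM in Myonuclei (Type IIb) against 1326 in Myoblasts/Progenitors, and Peg3 47.5 (10.9 without 1 cell) against 1424 in MuSCs.

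Low H19 counts were also present in day 7 blood cells. In monocytes and macrophages the proportion of H19 to Meg3 lay above that of free RNA in barcodes with 1 to 100 counts. The intervals of dendritic and of T and NK cells covered it. In barcodes with 1 to 10 counts free RNA held 284 CPM of H19 and 683 of Meg3. That lower proportion lay below the interval of T and NK cells. H19 counts per Meg3 count were 0.754 (0.708 to 0.804) in free RNA, 0.285 in FAP cells and 105 in cells labelled Myonuclei. They were 6.00 (4.53 to 8.07) in monocytes and macrophages, 0.875 (0.270 to 2.76) in dendritic cells and 1.03 (0.628 to 1.69) in T and NK cells. Of the 74 M1 Macro. cells with H19, 89.2% held 3 or more counts of 6 myofibre markers (Acta1, Ckm and others), against 57.1% of the 154 without it. In the 74 cells under that limit the H19 level was 10.1 CPM, against 39.5 in all 228. In M2 Macro. (Cx3cr1_hi) it was 29.6 CPM without such cells and 81.5 with them. H19 per myofibre marker count was 0.0713 in monocytes and macrophages, 0.00785 in cells labelled Myonuclei and 0.0202 in free RNA. The part of myofibre RNA in these H19 counts was not tested.

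Meg3 was the gene with the most counts of the set, 26586 at day 7. At day 2 it had 216 CPM (171 to 270) in FAPs (Adipogenic), 181 (169 to 193) in Smooth Muscle and 175 (161 to 189) in FAPs (Pro-remodeling), which overlap, and 105 in FAPs (Stem). At day 7 every neighbour in the order was apart from the next as far as Smooth Muscle: FAPs (Pro-remodeling) 3256 (3210 to 3302), Tenocytes 2581, FAPs (Adipogenic) 1801, FAPs (Stem) 1285, MuSCs 1082, Myoblasts/Progenitors 464 and Smooth Muscle 150. The levels of the myogenic labels depended on cells with other markers. In MuSCs 81.2% of Meg3 counts were in cells with 3 or more FAP marker counts. The other 55 of 137 MuSCs had 677 CPM. The 52 Myoblasts/Progenitors without 3 or more myofibre marker counts had 1189. These limits are unlike, so the order of the labels without such cells was not compared. The number of cells with a count was 480 of 495 in FAPs (Pro-remodeling) and 62 of 137 in MuSCs. In Smooth Muscle, 61.5% of Meg3 counts at day 2 and 76.9% at day 7 were in cells with 3 or more counts of 5 FAP markers, and the level in the other cells was 104 and 62.1 CPM.

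Dlk1 encodes a membrane protein related to the Notch ligands that restrains fat cell formation. It was found in few cells. At day 2, 88 counts lay in 15 of 138 FAPs (Pro-remodeling) cells, 54 of them in 1 cell. At day 7, Tenocytes had 166 CPM (130 to 208, in 5 of 48 cells), FAPs (Pro-remodeling) 111 (103 to 120, in 97 of 495), FAPs (Adipogenic) 33.4 and FAPs (Stem) 9.79. In Tenocytes 1 cell held 36 of the 74 counts, and without it the level was 87.3 CPM, below FAPs (Pro-remodeling). In FAPs (Pro-remodeling) 544 of 654 counts were in cells with 3 or more tenocyte marker counts, and the other 171 cells had 66.0 CPM. Of the cells without Dlk1, 65.1% held as many tenocyte marker counts, against 65 of 97 with it. MuSCs held 5 counts and Myoblasts/Progenitors 2.

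Mest, also called Peg1, encodes a protein of the hydrolase fold expressed in fetal mesoderm. At day 2 its level was 167 CPM (145 to 192) in Endothelial (Capillary) and 160 (133 to 190) in Endothelial (Stem), overlapping, 112 (103 to 121) in Smooth Muscle, and 10.8 (7.67 to 14.9) in FAPs (Pro-remodeling). At day 7 the order was different. Tenocytes had 882 (797 to 973), with 191 of 394 counts in 1 cell, MuSCs 679, FAPs (Pro-remodeling) 670, Myoblasts/Progenitors 590, FAPs (Adipogenic) 195, Smooth Muscle 185 and Endothelial (Capillary) 87.9 (69.5 to 110). Without its top cell Tenocytes had 486, below MuSCs. The 52 Myoblasts/Progenitors cells with fewer than 3 myofibre marker counts had 1048, above the other labels with all their cells kept. Of the day 2 Mest counts in Smooth Muscle, 99.6% were in cells with 3 or more endothelial marker counts, as were 92.2% at day 7. Of the Smooth Muscle cells without Mest, 87.4% at day 2 and 77.2% at day 7 held as many of these counts. T Cells at day 7 held 136 Mest counts in 24 of 293 cells, 45.6% of them in cells with 3 or more FAP marker counts.

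Peg3 and Zim1 are neighbouring zinc finger genes, Peg3 read from the paternal and Zim1 from the maternal copy. Peg3 is known as a mark of stem and progenitor cells in adult tissues. At day 7 it had 1424 CPM (1340 to 1512) in MuSCs, where 133 of 137 cells held it, 608 (578 to 640) in Myoblasts/Progenitors, 356 (341 to 372) in FAPs (Pro-remodeling) and 228 in Tenocytes, each apart from the next. At day 2 MuSCs had 112 CPM (51.4 to 213), from 9 counts in 1 of 21 cells, and Endothelial (Stem) followed with 26.6. Zim1 was also highest in MuSCs, with 141 CPM (116 to 171) in MuSCs, 104 (95.7 to 112) in FAPs (Pro-remodeling) and 48.0 (39.8 to 57.4) in Myoblasts/Progenitors. The 52 Myoblasts/Progenitors cells with fewer than 3 myofibre marker counts had 98.2 CPM of Zim1 and 1104 of Peg3, so the distance of this label from the others depended on the cells with such counts. In day 7 Smooth Muscle, 161 of 183 Peg3 counts were in cells with 3 or more counts of myogenic markers, and the level in the other 214 cells was 9.65 CPM.

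Ndn encodes necdin, a MAGE family protein that limits proliferation. It was already present at day 2, at 171 CPM (131 to 220) in FAPs (Adipogenic), 120 (101 to 140) in FAPs (Stem) and 102 (91.5 to 113) in FAPs (Pro-remodeling). At day 7, FAPs (Stem) had 287 (246 to 333), FAPs (Pro-remodeling) 231 (219 to 244), FAPs (Adipogenic) 214 and Tenocytes 112. Myogenic cells held little of it, 18.6 CPM in MuSCs and 8.87 in Myoblasts/Progenitors, whereas Peg3, Mest and Cdkn1c were high in both lineages.

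Day 7 was then set against day 2 within each cell class that had 50 or more kept cells on both days, for genes with at least 20 counts over both. A gene is called higher or lower when its CPM ratio was at least 2-fold. In FAP cells (215 and 805 cells), all 10 genes were called higher, against 25.6% of the 11851 genes compared (14% were called lower). The choice of the genes used this contrast, so the count is a description. The median log2 ratio was 4.54 for the 10 genes and 0.21 over all genes compared.

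H19 had the highest log2 ratio of the set, 7.36 (6.80 to 7.99), from 25 to 6534 counts. Of the 25 counts, 19 were in 1 FAPs (Pro-remodeling) cell, and without it that label had 0 CPM at day 2. The H19 ratios of the class and of this label thus rest on few day 2 cells, which the intervals do not cover. Zim1 had 6.79 (5.43 to 8.67) from 4 to 704 counts, Cdkn1c 6.38 (6.04 to 6.75) from 67 to 8870, and Mest 6.13 (5.68 to 6.63) from 39 to 4345. Peg3 had 4.95 (4.55 to 5.39) and Meg3 4.13 (4.03 to 4.23). The growth-receptor adaptor Grb10 and the transcription factor Plagl1 had smaller ratios of 2.02 and 2.07. Dlk1 had 2.36, or 0.89 and under 2-fold without cells of other markers (151 and 364 cells). Leaving out its top cell widened the difference: in FAPs (Pro-remodeling) it had 25.1 and 111 CPM with that cell and 9.79 and 98.7 without. Ndn had the smallest, 1.06 (0.93 to 1.20), and relative to the median of all FAP genes found on both days (a shift of 0.20) it was 0.86, short of 2-fold. In FAPs (Pro-remodeling) alone all 10 were again called higher, beside 26% of genes (13.7% lower), from 1.18 (Ndn) to 7.44 (H19), a range close to that of the class.

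In endothelial cells (336 and 333) 6 of the genes had enough counts. Cdkn1c was called higher, log2 2.56 (2.30 to 2.83), from 60.6 to 358 CPM, and H19 was at least 22.6-fold higher, from 0 to 47 counts. The day 7 H19 level was 28.0 CPM, against 339 in free RNA, and in Endothelial (Capillary) 33 of 38 H19 counts were in cells with 3 or more myofibre marker counts, with 9.40 CPM in the other cells. Without cells holding 3 or more counts of markers of another class, Cdkn1c was still called higher and H19 had 0 and 7 counts, too few to compare. The share of all genes called higher was 14.9% and lower 9.5%. Meg3 was called lower, -1.18 (-2.12 to -0.32), but 48 of its 49 day 2 counts were in 4 Endothelial (Capillary) cells, 37 of them in 1 cell, and without the top cell of each day the ratio was 0.65. Within labels, Meg3 went from 48 to 1 counts in Endothelial (Capillary) and from 1 to 14 in Endothelial (Stem). Mest had -0.997 (-1.31 to -0.70), from 145 to 72.7 CPM, just short of 2-fold. It was called lower without cells of other markers (224 and 57 counts in 227 and 173 cells), where Meg3 had 2 and 8 counts and no call. Grb10 had 0.61 (0.27 to 0.96) and Peg3 -0.72 (-1.61 to 0.10).

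In Smooth Muscle (304 and 232 cells) 4 of 9 genes were called higher, beside 14.1% of all genes, and 0 lower, beside 7.86%. They were H19 (6.75, from 1 to 57 counts), Peg3 (2.85), Cdkn1c (1.90, 1.72 to 2.09) and Grb10 (1.10, 0.85 to 1.36). Without cells holding 3 or more counts of markers of another class, 15 and 8 cells were left, and of the 4 none was called, with at most 4 counts each on either day. Peg3 had 9.40 CPM at day 2 and 67.5 at day 7, but 9.65 at day 7 in cells without myogenic markers. The day 7 H19 level of 21.0 CPM lay below that of free RNA (339). Mest had 0.72 and Meg3 -0.27 (-0.44 to -0.10). The Meg3 ratio turned to 0.58 as a mean over cells and 1.80 in the 15 and 8 cells without other markers (42 and 39 counts). Meg3 stayed lower at day 7 without the top cell, at 172 and 138 CPM. It also did so without cells of FAP markers, at 104 and 62.1 CPM in 232 and 147 cells. Of Cdkn1c counts at day 7, 35.9% were in cells with 3 or more FAP marker counts, and the level in the other cells was 302 CPM against 263 in all. At day 2, 98.6% of Cdkn1c counts were in cells with 3 or more endothelial marker counts, and 89.7% of the cells without Cdkn1c held as many. The part of endothelial RNA in the Cdkn1c counts was not tested.

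In monocytes and macrophages (1292 and 757 cells) 7 of 8 genes were called higher, beside 19.3% of genes (12.8% lower), from levels of at most 3.94 CPM at day 2. Plagl1 was the exception, with 0.80 (-0.06 to 1.64). Without cells of other markers (681 and 192 cells left) Cdkn1c, H19 and Meg3 kept their call, Plagl1 gained one, and the other 4 had under 20 counts. Meg3 went from 5 to 58 counts and Peg3 from 3 to 31, at 7.71 and 4.12 CPM, both far below the free RNA of the same library. In dendritic cells 1 of 1 gene, Cdkn1c, was called higher (background 13.6% higher, 8.44% lower), and in T and NK cells 1 of 6, H19, at a bound of 2.06-fold (background 14.7% higher, 8.22% lower). Neither gene had the 20 counts needed once cells of other markers were left out, nor 100 with them. Their day 7 levels, 16.4 CPM of Cdkn1c and 17.0 of H19, lay below free RNA (222 and 339).

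**Figure D3:**
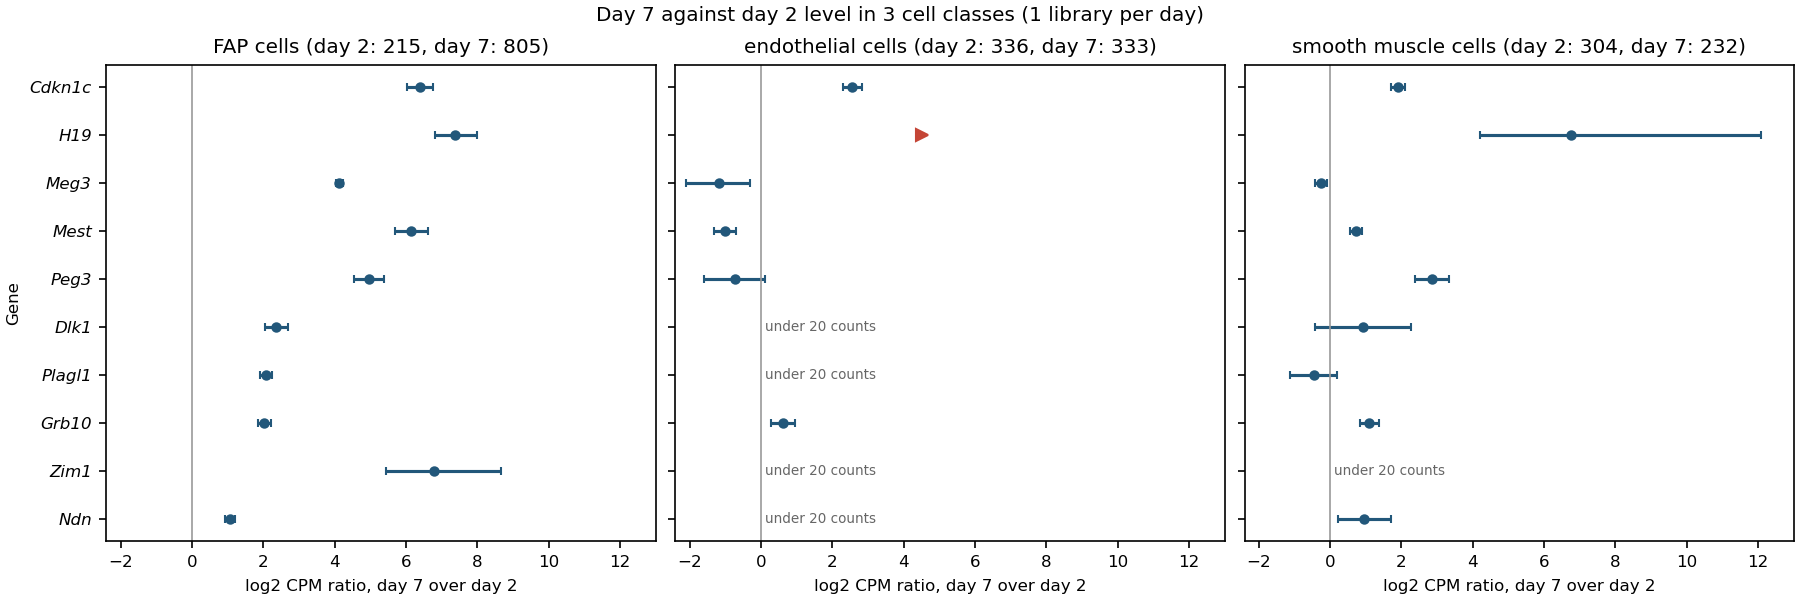
Log2 CPM ratio of day 7 over day 2 for each gene in FAP, endothelial and Smooth Muscle cells, with 95% counting intervals and a red arrowhead for a lower bound where the day 2 count was 0. All 10 points lie right of 0 in FAP cells, whereas Meg3, Mest and Peg3 lie left of 0 in endothelial cells, Peg3 with an interval that reaches 0.10 and Meg3 at 0.65 without its top cell.

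The genes were then followed in single cells. Before thinning, 91.3% of FAPs (Pro-remodeling) cells at day 7 held 5 or more of the 10 genes (median 7, 36 cells with all 10), against 17.4% at day 2 (median 3), although the day 2 cells were deeper (median 26218 against 10156 counts). Thinned to 2000 counts, the shares were 45.7% (41.2 to 50.2) of 495 cells and 0 of 138 (up to 2.64%). Thinned, 28.0% of 132 MuSCs and 22.3% of 175 Myoblasts/Progenitors held 5 or more at day 7, as did 22.7% of FAPs (Adipogenic), 21.6% of FAPs (Stem), 25.5% of Tenocytes and 0 of 149 Endothelial (Capillary) cells. Cells with many of the genes were found in labels of both lineages at day 7, although 82 of 137 MuSCs and 90 of 175 Myoblasts/Progenitors also held 3 or more FAP marker counts, whose part was not tested.

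**Figure D4:**
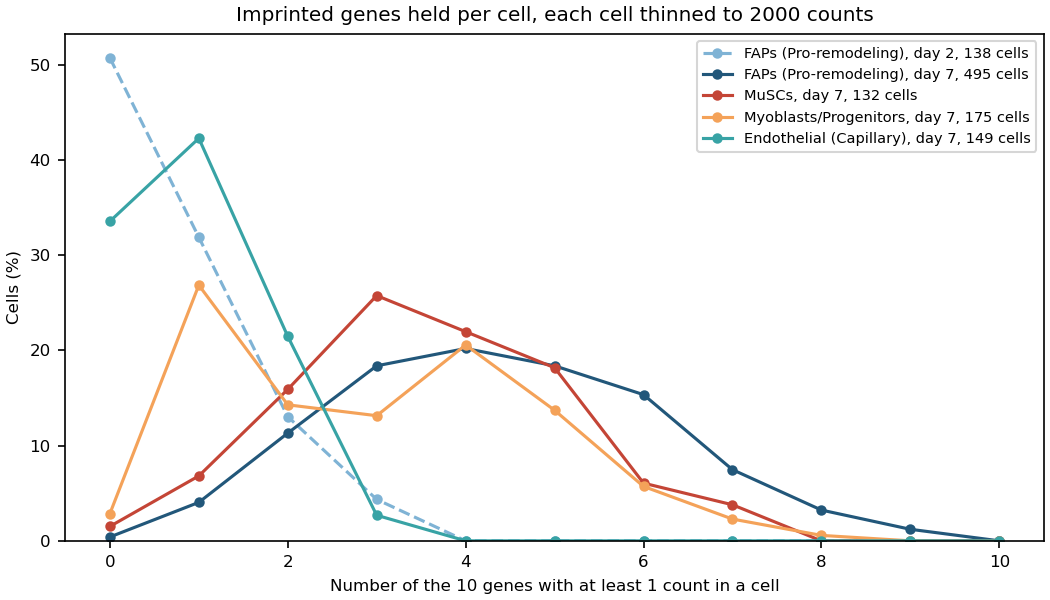
Percent of cells (y axis) that hold 0 to 10 of the genes (x axis) after thinning each cell to 2000 counts. The day 7 FAPs (Pro-remodeling) line peaks at 4 genes and the day 2 line at 0, while Myoblasts/Progenitors peak at 1 and again at 4.

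Within FAPs (Pro-remodeling) at day 7, pairs of the genes were compared within cells. Thinned, the share of cells with the second gene was higher among cells with the first for 37 of 45 pairs (82.2%), and for 12 pairs (26.7%) the intervals were apart. Over all pairs of 8239 genes of any level held and lacked by at least 10 cells, the same shares were 46.7% and 0.345%. Here and below, these genes were not matched to the 10 for the share of cells with a count, on which interval widths depend. Plagl1 was found in 43.8% of cells with Mest and 22.4% of cells without it. H19 cells held Mest in 64.9% against 47.3%, and Peg3 cells held Zim1 in 26.5% (20.5 to 33.3) against 12.7% (9.15 to 17.0). Ndn differed: cells with Meg3 held it in 39.6% and cells without in 53.7%, with overlapping intervals.

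In MuSCs, 16 of 28 thinned pairs were higher (48% over all pairs of 3989 genes) and 1 had intervals apart (0.237% over all pairs): Zim1 was found in 31.1% (22.5 to 40.9) of 106 cells with Peg3 and in 0 of the 26 without (up to 13.2%). The neighbouring pair went together in MuSCs, FAPs (Pro-remodeling) and Myoblasts/Progenitors, where the shares were 19.8% and 1.27%.

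In Myoblasts/Progenitors, 21 of 28 thinned pairs were higher and 12 were so with intervals apart, beside 51.3% and 1.5% of all pairs of 4412 genes. Others were lower. Mest cells held Peg3 in 81.7% (72.4 to 89.0) and cells without Mest in 24.4% (15.6 to 35.1), and Grb10 in 47.3% against 13.4%. H19 went the other way: its cells held Mest in 33.0% (23.3 to 43.8) against 73.6% (63.0 to 82.4) of the rest, Peg3 in 36.4% against 73.6%, and Cdkn1c cells held H19 in 38.3% against 60.6%. Depths were alike, at medians of 9824 counts with and 10537 without H19. In this label the 6 myofibre markers summed to 108349 CPM in cells with H19 and to 354 in cells without it, and to 1961 CPM in cells with Mest and 203951 without. For Peg3 the sums were 62817 CPM with and 177449 without. Of the cells with each gene, 96 of 123 (H19), 68 of 117 (Mest) and 77 of 127 (Peg3) held 3 or more counts of these markers, against 27 of 52, 55 of 58 and 46 of 48 of the cells without it. Free RNA of this library held 16751 CPM of the 6 markers, so 3 counts in a cell do not show that it expressed them.

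**Figure D5:**
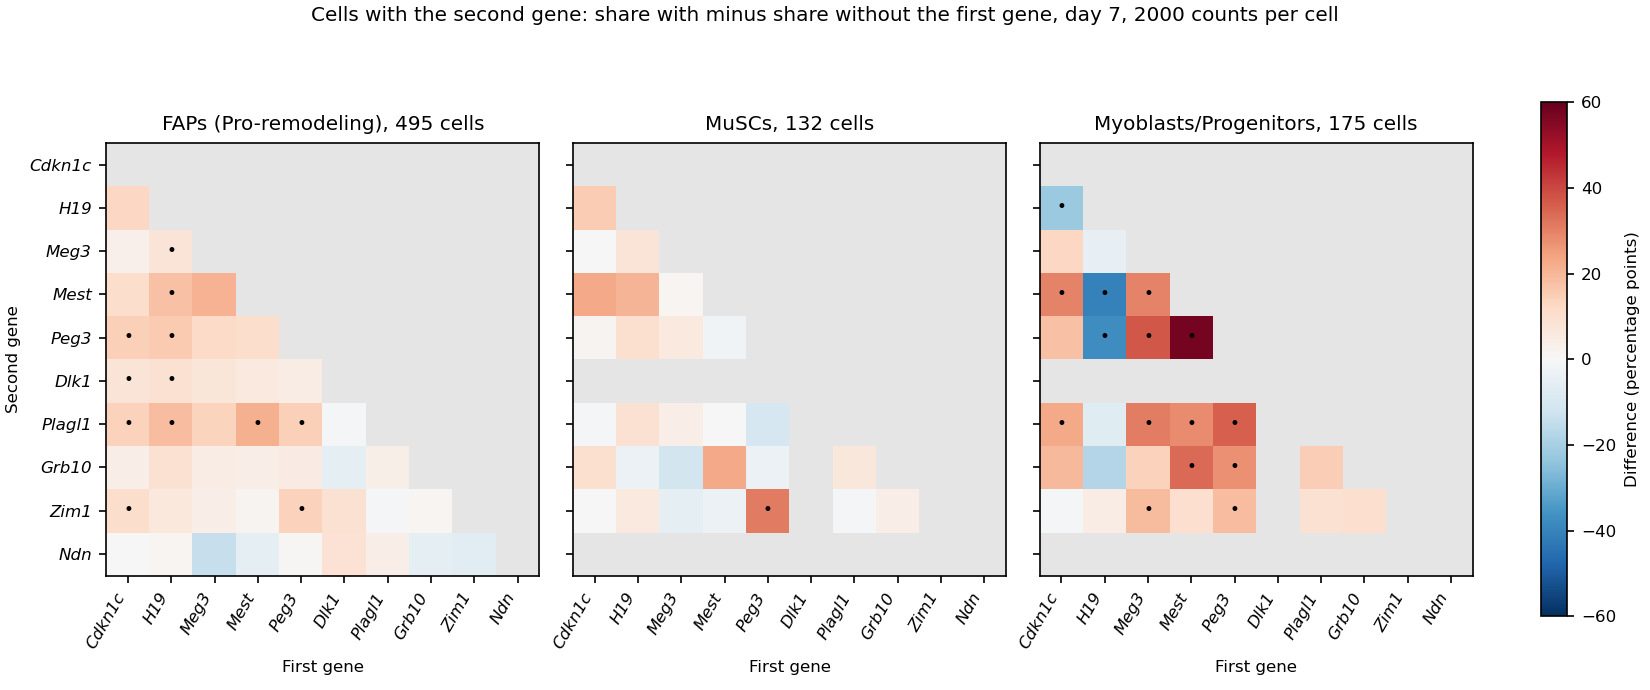
Difference in percentage points between the share of cells with the second gene (rows) among cells with and without the first gene (columns), day 7, thinned to 2000 counts, with a dot where the intervals are apart and grey where fewer than 10 cells held a gene. Myoblasts/Progenitors show the deepest values, red for Mest with Peg3 and blue for H19 with both.

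Stage markers split the same cells. In thinned Myoblasts/Progenitors, Pax7, the stem cell factor, was found in 42.7% (32.7 to 53.2) of cells with Peg3 and 6.33% of cells without, in 39.8% against 9 of 82 cells for Mest, in 48.0% against 17.6% for Plagl1 and in 47.4% against 20.4% for Meg3. Myf5 gave like differences for Peg3, Mest and Plagl1. Myog, the differentiation factor, was found in 24 of 81 cells with Cdkn1c (29.6%) and in 3 of 94 without (3.19%), with intervals apart. H19 cells held Myog in 3.41% against 27.6%, Myod1 in 7.95% against 26.4% and the cell-cycle inhibitor Cdkn1a in 9.09% against 28.7%. In MuSCs none of 40 such pairs had intervals apart, and Mki67 and Top2a, which mark dividing cells, were in fewer than 10 cells and were not compared. In FAPs (Pro-remodeling) none of 20 pairs with Pdgfra and Cd34 had intervals apart and Mki67 and Top2a were again too rare, whereas in FAPs (Adipogenic) cells with Mest held Cd34 in 51.6% against 74.0%, and 2 of the 10 cells with Dlk1 did, against 69.9% of the rest.

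Other genes known as imprinted in the mouse, or tied to imprinted genes, were taken from a list of 42, of which 41 were in the files. Whether each is imprinted in muscle was not examined. In FAP cells 26 had enough counts, 15 were called higher (25.6% of all genes were), 2 lower (14% of all genes) and 9 neither, with a median log2 ratio of 1.12 against 0.21 over all genes. Igf2 and the next 4 genes are named after their values were seen. Igf2, the fetal growth factor next to H19, went from 25 to 2440 counts, log2 5.94 (5.38 to 6.57), and its clearance receptor Igf2r had 2.55 (2.35 to 2.74). Mirg, a noncoding RNA downstream of Meg3, had 3.92, whereas Dio3, the thyroid hormone deiodinase of the same Dlk1 cluster, was lower, -1.91 (-2.27 to -1.56), as was Zdbf2 (-5.80, from 35 to 1 counts). Of the 6 with most counts, Dcn, which is also 1 of the 5 FAP markers, had 1.33. Gnas had 1.19, Cd81 0.94, Kcnq1ot1 0.31, Ube3a 0.14 and Commd1 -0.76. Kcnq1ot1, the noncoding RNA of the Cdkn1c domain, had 347 and 429 CPM while Cdkn1c had 13.1 and 1088. Igf2 was also present at day 7 in myogenic cells, at 499 CPM (475 to 524), and in cells labelled Myonuclei at 229 (187 to 278). In endothelial cells 19 of the list had enough counts, of which 5 were called higher and 3 lower, beside 14.9% and 9.5% of all genes. In Smooth Muscle 23 had enough, of which 6 were higher and 1 lower, beside 14.1% and 7.86%.

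Likeness of pattern was measured as Pearson's r of log2(CPM + 10) over 35 groups of cell type and day with at least 30 cells, among 11264 genes with at least 200 counts. The groups share libraries and depth, so r is a description. Among the 10 genes, Peg3 and Zim1 had 0.93, Meg3 and Plagl1 0.92, Cdkn1c and Mest 0.89, and Cdkn1c and Grb10 0.89, whereas Dlk1 and Meg3 had 0.76, Cdkn1c and H19 0.73, and Mest and Ndn 0.39. Cdkn1c and Mest were each other's nearest gene of the 11264. The nearest were Thra and Grb10 next for Cdkn1c, F830016B08Rik (0.96) and Rdh14 for H19, Arhgef25 (0.97), Gas1 and Mmp11 for Meg3, and Snai2 and Grb10 next for Mest. For Peg3 they were Capn6 (0.96), Igsf3 and Spats2l, and Capn6 (0.95) was also nearest to Zim1, followed by Zcchc5 and Nppc. For Dlk1 they were Kcnk2 (0.95), Fbln7 and Pycr1, for Plagl1 Ccdc8 (0.95), Lama2 and Islr, for Grb10 Nfia (0.97), Auts2 and Rbfox2, and for Ndn Cacna1a (0.97), Lrp3 and Aebp1.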

How the data were processed

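Dissociated tibialis anterior muscle was profiled on a 10x Chromium platform, 1 library for each of 2 days. The authors deposited UMI counts made with Cell Ranger on mm10, and estimated counts after removal of free RNA with SoupX. They also deposited a table of cell type labels made on a larger collection after doublet removal. The study and the submitters' notes give Cell Ranger 3.1.0, whereas the deposited matrices name an earlier version. Cells were kept as in the study, with at least 750 genes and 1000 transcripts and at most 30% mitochondrial transcripts. Here the counts were summed per label or class and day and given as CPM, with exact 95% intervals that cover counting error only. A count of 0 was set to a floor of 3 counts for bounds. For shares of cells, each cell was thinned to 2000 counts, and pairs of genes were set beside all pairs in the same cells. No doublet caller was run. Ratios were computed for all genes with at least 20 counts and called at 2-fold; there was no test and no p-value, since cells are not replicates. Intervals were run on simulated data (95.4% of FAP intervals covered the true ratio over 11727 genes). The simulated sums were Poisson, as the intervals assume, with no spread between cells or mice, so the coverage checks the computation only. The genes named are the 10, the 6 other imprinted genes with most counts, the stage markers and the 3 genes nearest in pattern, of which 1 is not reported here, and 5 other imprinted genes chosen after their values were seen. The 10 genes and all lists were chosen with earlier results of these data known. Identifiers were matched to GENCODE (27722 of 27998). Python 3.11.15, numpy 2.4.6, scipy 1.17.1, pandas 2.3.3 and matplotlib 3.10.9 were used.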

Additional observations from a re-analysis of the deposited data

Results flagged for a closer look

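Mest went in opposite directions in 2 classes, with a log2 ratio of day 7 over day 2 of -0.997 in endothelial cells and 6.13 in FAP cells. Meg3 had -1.18 in endothelial cells and -0.27 in Smooth Muscle, against 4.67 in monocytes and macrophages, where it had 5 and 58 counts and, at day 7, 7.71 CPM against 449 in free RNA. Neither negative Meg3 ratio kept its direction in every alternative. In endothelial cells it was 0.079 as a mean over cells, 2.90 without cells of other markers (2 and 8 counts) and 0.65 without the top cell. In Smooth Muscle it was 0.58 as a mean over cells and 1.80 in the 15 and 8 cells without other markers. There Meg3 stayed lower at day 7 without the top cell (172 and 138 CPM) and without cells of FAP markers (104 and 62.1 CPM). The differences between classes were not tested, since each day had 1 library.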

How the results depend on the processing

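In FAP cells 9 or 10 genes were called higher and 0 lower under every alternative run; Ndn was lost with median-of-ratios scaling and at 4-fold, and Dlk1 without marker cells. Of 37 log2 ratios, 37 moved by less than their counting interval with no or stricter limits on cells and 34 with SoupX values, whereas 4 moved further with median-of-ratios scaling. As a mean over cells 7 moved further and 1 called ratio changed sign, and without marker cells 12 of 25 moved further and 1 called ratio changed sign. Meg3 in Smooth Muscle, not called, is counted among those that moved. Without the top cell 3 of 34 moved further and 1 called ratio changed sign. In endothelial cells, 1 gene called lower became 2 with SoupX values, with median-of-ratios scaling and with no minimum of counts, and 0 with at least 100 counts or a 4-fold call, the gene called lower without marker cells was Mest in place of Meg3, and 2 called higher became 1 without cells holding 3 or more markers of another class, 4 with no minimum and 1 with at least 100 counts. The Meg3 log2 ratio there turned to 0.079 as a mean over cells, 2.90 without marker cells and 0.65 without the top cell. In Smooth Muscle, the Meg3 ratio of -0.27 was 0.58 as a mean over cells and 1.80 without marker cells, but stayed negative without the top cell. There 4 higher became 1 (Meg3) in the 15 and 8 cells without other markers and 2 at 4-fold. The 0 lower became 1 as a mean over cells. In monocytes and macrophages, 7 higher became 4 without marker cells and 2 with at least 100 counts. In dendritic cells, 1 higher became 0 without marker cells, 7 with no minimum and 0 with at least 100 counts, and 0 lower became 2 with no minimum. In T and NK cells, 1 higher became 3 as a mean over cells or with no minimum, 4 without the top cell, and 0 without marker cells or with at least 100 counts, and 0 lower became 1 with SoupX values and with no minimum. The share of cells with 5 or more genes was, at 2 or more counts per gene and after thinning, 2.90% and 0 in FAPs (Pro-remodeling) at day 2, 70.5% and 45.7% at day 7, 30.7% and 28.0% in MuSCs and 39.4% and 22.3% in Myoblasts/Progenitors. Of 150 levels, 91 left their counting interval without marker cells, 40 as a mean over cells and 30 without the top cell. With SoupX values 16 did, with stricter limits on cells 3 and with no limits 1. Of 98 co-detection differences, 14 moved and 1 turned on thinning, that of Plagl1 and Zim1 in FAPs (Pro-remodeling) at -0.81 points. The causes were not tested.

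No paired analysis was possible because each day had 1 library, which also left none to leave out. The values within 1 label and without cells of 1 named class of markers were chosen after seeing the data. Low counts limit Zim1 and H19 at day 2 and Dlk1 outside FAP cells and Tenocytes.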
